A study of Homo sapiens with 12 samples.

Results

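The genes described here are 33 genes of protein folding, quality control and stress signalling in the endoplasmic reticulum (ER), chosen by symbol and matched to the identifiers of the gene count table. All 33 were found among the 60671 genes of the table, and all 33 passed the filter on low counts, of more than 1 CPM (a gene's count scaled to the total gene count of its library) in 3 or more libraries, which 13236 genes passed. The question was how these genes were expressed in proliferating and quiescent human fibroblasts, with and without LEO1, a subunit of the PAF1 complex that accompanies RNA polymerase II during elongation. The cells were BJ-5ta, human fibroblasts immortalized with telomerase, so both genotypes carry the telomerase transgene. The groups were wild-type (wt) cells in 10% serum (WT_10, libraries 1 to 3), wt cells kept 10 days in 0.1% serum (WT_01, libraries 7 to 9), ΔLEO1 cells in 10% serum (Leo1_10, libraries 4 to 6) and ΔLEO1 cells kept 10 days in 0.1% serum (Leo1_01, libraries 10 to 12). The ΔLEO1 cells are a single clone in which the start of the LEO1 gene was targeted with CRISPR/Cas9, so the spread between their libraries does not cover differences between clones. It is not stated whether the 3 libraries of a group came from separate cultures, and p-values then measure only the spread between these libraries, which may be technical.

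Proteins bound for secretion or for membranes enter the ER through the SEC61 channel, lose their signal peptide, are glycosylated, and fold with the help of chaperones and disulfide isomerases. Fibroblasts secrete large amounts of collagen and other matrix proteins and depend on this machinery. When unfolded proteins accumulate, the sensors IRE1 (encoded by ERN1), PERK (encoded by EIF2AK3) and ATF6 start the unfolded protein response, which slows translation and raises transcription of chaperone and degradation genes through XBP1, ATF6 and ATF4. Proteins that do not fold are returned to the cytosol and degraded, a route called ER-associated degradation.

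The promoters of several of these genes hold the ER stress response elements, sequences through which ATF6 and XBP1 act together with the factor NF-Y, and they are shown as a description of some members. Because genes of the ER stress response were chosen, the shares below are not independent of that choice and test nothing. Promoters of 31 of the 33 genes were in a RefSeq table of 27305 promoters on GRCh38.p14, each from 250 bases before to 50 bases after the annotated start. PDIA3 and DERL1 were not matched. Both strands were searched for the ERSE (CCAAT and CCACG with any 9 bases between them), the ERSE-II (ATTGG and CCACG with any 1 base between them) and the UPRE core (TGACGTGG). An exact ERSE was found in 22 promoters of the table (0.0806%) and in 6 of the 31 members, and an exact ERSE-II in 17 promoters (0.0623%) and in 3 members. Either element was present in 9 of 31 members and in 39 of the 27305 promoters (0.143%). The UPRE core was found in 208 promoters (0.762%) and in 1 member, HYOU1, where it overlaps an ERSE-II. These are matches of letters only, and no binding was measured in the data used here.

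The ERSE matches are given 5′ to 3′ on the strand of the gene, with the matched letters in capitals (a match on the opposite strand reads as its reverse complement).
HSPA5 (chr9:125241381-125241419, minus strand): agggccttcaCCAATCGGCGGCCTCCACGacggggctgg
HSP90B1 (chr12:103930211-103930239, plus strand): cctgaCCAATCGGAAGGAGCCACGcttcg
HSP90B1 (chr12:103930316-103930344, plus strand): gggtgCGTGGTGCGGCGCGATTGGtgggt
CALR (chr19:12938374-12938412, plus strand): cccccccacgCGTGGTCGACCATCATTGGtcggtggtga
PDIA6 (chr2:10812848-10812876, minus strand): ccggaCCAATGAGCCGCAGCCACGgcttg
CRELD2 (chr22:49918544-49918582, plus strand): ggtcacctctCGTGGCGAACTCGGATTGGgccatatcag
SERP1 (chr3:150546705-150546733, minus strand): tcatgCGTGGAGACAGCGAATTGGtgttt

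The ERSE-II matches are given in the same way, with the ERSE-II letters in capitals.
HYOU1 (chr11:119057264-119057294, minus strand): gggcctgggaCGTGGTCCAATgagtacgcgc
HYOU1 (chr11:119057370-119057400, minus strand): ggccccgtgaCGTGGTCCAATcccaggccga
HERPUD1 (chr16:56932015-56932045, plus strand): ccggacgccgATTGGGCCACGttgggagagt
SDF2L1 (chr22:21642104-21642134, plus strand): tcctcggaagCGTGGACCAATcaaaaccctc
All of these matches lie upstream of the RefSeq start, the nearest being that of HSPA5, 47 bases from it, and the farthest that of SERP1, 213 bases from it. HSP90B1 and HYOU1 hold a pair of elements each. The stretches shown for HSP90B1, PDIA6 and SERP1 overlap exons in the GENCODE 29 annotation of GRCh38, which also gives the gene positions, and the others overlap none.

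Levels were measured in 2 ways, as CPM of the gene counts, and against ERCC transcripts, synthetic RNAs added to each RNA sample. An ERCC-scaled count is a gene's count per 1000 effective ERCC counts of the library. LEO1, the targeted gene, was checked first. Its ERCC-scaled counts were 2.94, 2.51 and 1.62 in WT_10, 1.39, 1.84 and 0.759 in WT_01, 0.216, 0.0926 and 0.131 in Leo1_10 and 0.0348, 0.0433 and 0.126 in Leo1_01. The groups of the genotypes did not overlap at either serum level, and the log2 fold change of ΔLEO1 against wt was −4.02 ± 0.49 (SE, adjusted p = 2.16e-11) with 10% and −4.32 ± 0.50 (adjusted p = 1.43e-12) with 0.1% serum.

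The libraries held 26240632 to 45315560 counts on genes, and the added ERCC transcripts made up 0.625% to 3.24% of all counts. Fibroblast identity was checked with 10 markers, all above 1 CPM in each group and together 69510 to 100270 CPM per library, while the summed markers of epithelial, endothelial and melanocyte cells stayed below 2 CPM. The 5 leukocyte markers summed to 0.995 to 1.70 CPM in wt libraries and 2.72 to 8.24 CPM in ΔLEO1 libraries, of which PTPRC was 1.37 to 5.95 CPM in 10% and 5.64 to 7.10 CPM in 0.1% serum, and the part of this in the results was not tested. In each group the library with the highest number (3, 6, 9 and 12) stood apart. Over all tested genes, it differed from the mean of the other 2 by a median of 0.15 to 0.26 in absolute log2 CPM, against 0.06 to 0.11 between those 2. Library 6 did so most for the genes described here, of which 32 of 33 were below the mean of the other 2 libraries of its group, by a median of −0.23 in log2 CPM against −0.03 over all tested genes.

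The 33 genes together took 0.744% to 0.970% of the gene counts of a library. Their summed CPM was 9221 ± 219 (SD, n = 3) in WT_10, 9295 ± 395 in WT_01, 8788 ± 1186 in Leo1_10 and 8202 ± 245 in Leo1_01. By library, the sums were 9052, 9143 and 9468 in WT_10, 8913, 9269.6 and 9701 in WT_01, 9277, 9652 and 7436 in Leo1_10 and 8415, 8256 and 7934 in Leo1_01. The 3 ΔLEO1 libraries in 0.1% serum lay below all 6 wt libraries.

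Summed over the 33 genes, the ERCC-scaled count was 1141, 961 and 658 in WT_10, 417, 559 and 362 in WT_01, 1468, 1125 and 784 in Leo1_10 and 443, 247 and 719.7 in Leo1_01. In both genotypes the sum was lower in each library in 0.1% serum than in each library in 10% serum, with means of 919.9 ± 244 (SD, n = 3) and 446 ± 102 in wt cells and of 1125 ± 342 and 470.1 ± 237 in ΔLEO1 cells. On this scale, fewer cells, less RNA per cell and a different amount of RNA entering the library cannot be told apart. The share of gene counts on mitochondrial genes moved with the groups, from 2.04% to 2.25% in WT_10 and 2.68% to 2.94% in Leo1_10 to 3.09% to 3.86% in WT_01 and 4.03%, 3.82% and 2.18% in Leo1_01, where library 12 lay near the wt libraries in 10% serum, and its part in the results was not tested.

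**Figure D1:**
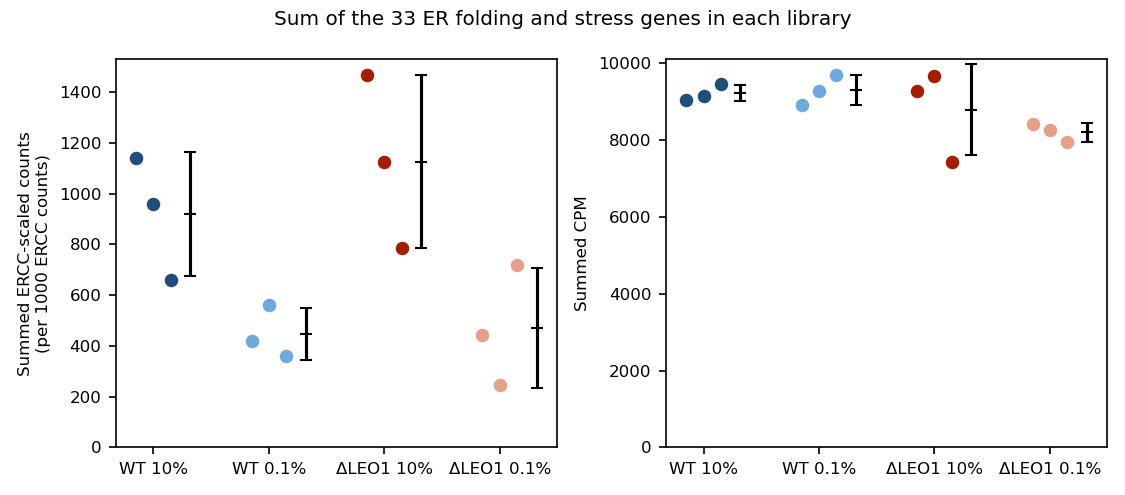
Sum of the 33 genes in each library, as ERCC-scaled counts per 1000 ERCC counts (left) and as CPM of the gene counts (right), by genotype and serum. Coloured points are libraries in the order of their number, and the black bars are the mean and SD of 3 libraries. The ERCC-scaled sums in 0.1% serum lie below those in 10% serum in both genotypes, whereas the CPM sums stay between 7436 and 9701.

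Levels within a library differed widely between the genes. Per kb of exon, CALR, a lectin chaperone that binds calcium, had the highest level of the 33 in all 4 groups, with 412 ± 43.5 CPM per kb (SD, n = 3) in wt cells in 10% serum. It was followed there by PPIB at 261 ± 36.8, P4HB at 212 ± 8.66, HSP90B1 at 201 ± 3.20 and HSPA5 at 197 ± 1.19, of which P4HB, HSP90B1 and HSPA5 lay close together. The sensors EIF2AK3, at 5.46 ± 0.386, and ERN1, at 1.35 ± 0.370, were the lowest of the 33 in all 4 groups. CREB3L1 ranked 9 in 10% serum in both genotypes, and ranked 7 in wt and 6 in ΔLEO1 cells in 0.1% serum.

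In 0.1% serum, the log2 fold changes of the ER genes on the ERCC scale lay below 0 together with those of most genes. In wt cells, 15 of the 33 genes were called lower in 0.1% than in 10% serum and 0 higher, at an adjusted p under 0.05 in edgeR's likelihood ratio test on the ERCC scale. Of all 13236 genes tested, 36.1% were called lower and 0.944% higher. In ΔLEO1 cells, 24 of 33 were called lower and 0 higher, beside 47.2% and 0.975% of all genes. The median log2 fold change of the members was −1.05 in wt and −1.24 in ΔLEO1 cells, and that of all genes was −0.97 and −1.05. Of the 33 log2 fold changes, 32 were below 0 in wt cells and all 33 in ΔLEO1 cells, and over all tested genes 94.96% and 94.8% were. At an unadjusted p under 0.05, 27 members were lower in each genotype and 0 were higher, beside 53.4% and 61.4% of all genes lower and 1.22% and 1.16% higher. DESeq2 gave 19 and 26 lower and 0 higher, beside 40.3% and 51.8% of all genes lower and 0.876% and 0.816% higher. By the quasi-likelihood test 11 members were lower in wt and 21 in ΔLEO1 cells and 0 higher, beside 27.0% and 36.4% of all genes lower and 0.831% and 0.793% higher. In ERCC-scaled counts the serum groups did not overlap for 28 members in wt and 22 in ΔLEO1 cells, all lower in 0.1% serum, beside 53.4% and 50.9% of all genes lower and 1.16% and 0.846% higher.

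These counts of calls rested on single libraries. With each of the 12 libraries left out in turn, 1 to 29 members were called lower in wt cells and 0 to 32 in ΔLEO1 cells, while of all genes 8.64% to 65.3% and 4.86% to 88.4% were. The member median ran from −1.26 to −0.85 in wt and from −1.70 to −0.90 in ΔLEO1 cells. The count in wt cells was 1 without library 1, 7 or 9, 3 without library 2, and 26, 27 and 29 without library 3, 11 and 12, and that in ΔLEO1 cells was 1 without library 4, 12 without library 5, 0 without library 10 and 5 without library 11. HYOU1 alone kept its call in wt cells without library 1, 7 or 9, and in ΔLEO1 cells without library 4. Without the highest-numbered library of each group, 29 members in wt cells and 33 in ΔLEO1 cells were called, with medians of −1.13 and −1.83, beside −1.03 and −1.72 over all genes, of which 72.4% and 93.1% were called lower.

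**Figure D2:**
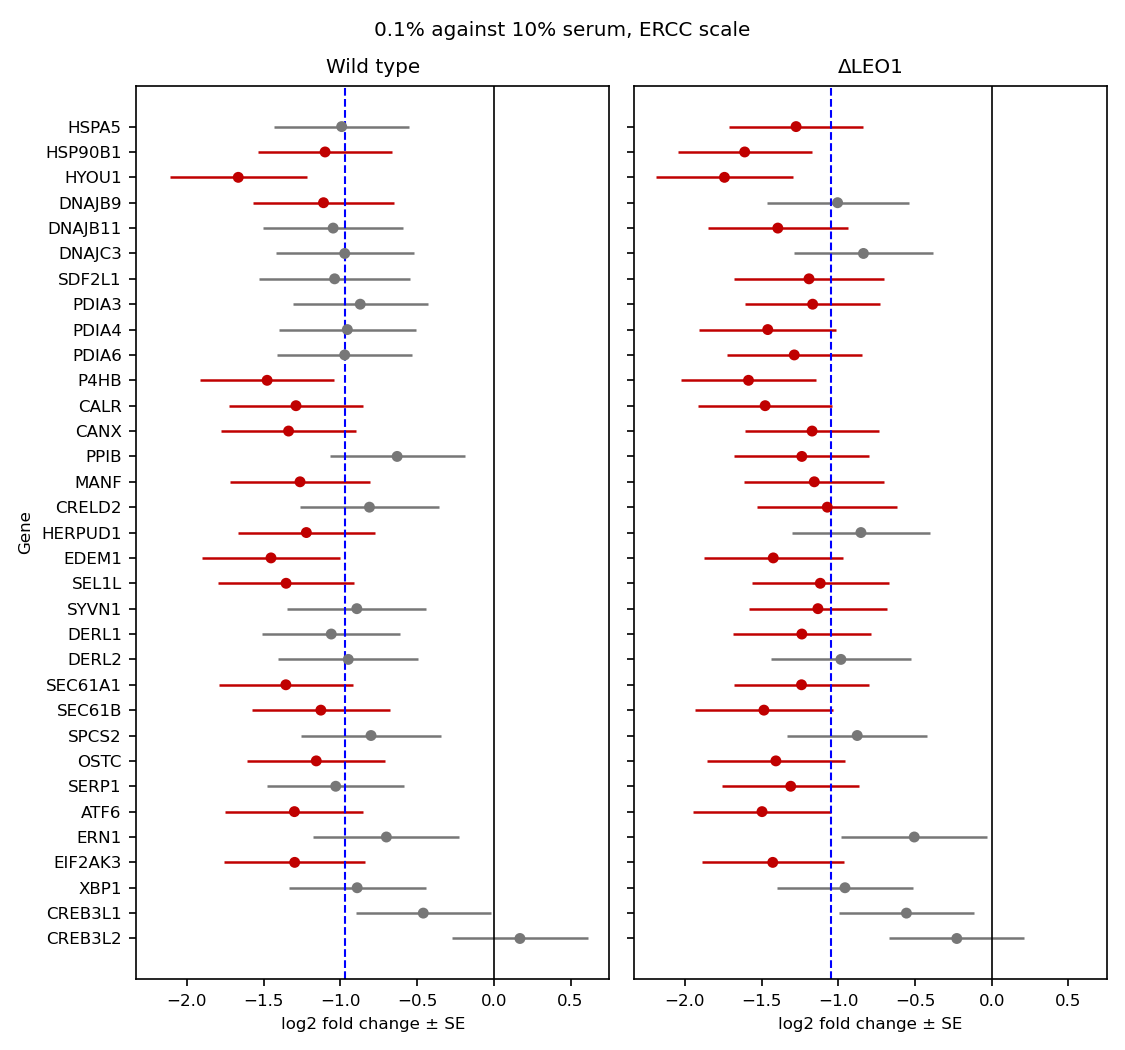
Log2 fold change of each of the 33 genes in 0.1% against 10% serum on the ERCC scale, in wt cells (left) and ΔLEO1 cells (right). Points are estimates over 3 libraries against 3 with bars of 1 SE, red where the adjusted p was under 0.05, and the dashed line is the median of all tested genes, −0.97 and −1.05. HYOU1 lies farthest to the left in both panels and CREB3L2 farthest to the right.

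To see which ER genes moved against the rest of the transcriptome, the same model was fitted with TMM factors computed on the genes, so that the median of all genes lay near 0 (0.00 in wt, 0.01 in ΔLEO1 cells). On this relative scale, 7 members were lower and 2 higher in 0.1% serum in wt cells, beside 16.6% and 16.0% of all genes. In ΔLEO1 cells, 8 were lower and 3 higher, beside 12.9% and 16.5%. The CPM groups of the serum levels did not overlap for 7 members lower and 6 higher in wt cells (18.6% and 31.5% of all genes) and 9 lower and 6 higher in ΔLEO1 cells (15.8% and 27.3%). The member medians were −0.08 and −0.15. HYOU1, P4HB, EDEM1 and ATF6 were called lower in both genotypes, and CREB3L1 and CREB3L2 were called higher in both. CANX, SEL1L and SEC61A1 were called lower in wt cells, and HSP90B1, DNAJB11, OSTC and EIF2AK3 in ΔLEO1 cells, where ERN1 was called higher. With each library left out in turn, 3 to 8 members were lower and 1 to 2 higher in wt cells, and 3 to 10 lower and 2 to 4 higher in ΔLEO1 cells. The fewest lower calls in wt cells, 3, came without library 8, and without library 9 only CREB3L2 was called higher. Without the highest-numbered library of each group, 13 were lower and 5 higher in wt cells (beside 30.8% and 28.0% of all genes) and 14 lower and 5 higher in ΔLEO1 cells (beside 28.4% and 29.2%).

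Between genotypes, no ER gene was called on the ERCC scale. Beside backgrounds of 4.64% lower and 4.2% higher, 0 of the 33 genes were called in either direction in ΔLEO1 against wt cells in 10% serum by edgeR's likelihood ratio test, and 0 had an unadjusted p under 0.05, as 6.81% lower and 10.2% higher of all genes had. In 0.1% serum the count was also 0, beside 3.59% lower and 3.85% higher of all genes, and 0 members had an unadjusted p under 0.05 (of all genes 5.58% lower and 8.7% higher). DESeq2 called 0 as well, beside 4.49% lower and 4.4% higher in 10% serum and 3.48% and 3.68% in 0.1% serum. The quasi-likelihood test also called 0, beside 4.2% and 3.81% of all genes in the former and 3.41% and 3.49% in the latter. The ERCC-scaled groups of the genotypes did not overlap for 2 members in 10% serum, both higher in ΔLEO1 cells, and 0 in 0.1% serum, beside 6.94% lower and 23.7% higher, and 4.83% and 4.64%, of all genes. The median log2 fold change of the members was 0.26 in 10% and 0.22 in 0.1% serum, beside 0.35 and 0.27 over all genes. With single libraries left out, it ran from 0.02 to 0.47 in 10% serum, and from −0.34 to 0.49 in 0.1% serum, where it was below 0 without library 12 alone. The 95% intervals were wide, with limits that ran from −1.21 for OSTC to 1.60 for SERP1 in 10% serum and from −1.46 for OSTC to 1.44 for HERPUD1 in 0.1% serum. Without the highest-numbered library of each group the member median in 0.1% serum was −0.51, beside −0.42 over all genes. OSTC and CREB3L2 were then called lower, as 15.9% of all genes were.

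Relative to the other genes, differences between genotypes were called for 8 members by the likelihood ratio test. In 10% serum, DNAJC3, SDF2L1, MANF and OSTC were called lower in ΔLEO1 cells and SERP1 higher, 4 and 1 members beside 21.8% and 17.7% of all genes. In 0.1% serum, HSP90B1, DNAJC3, SDF2L1, PDIA4, PPIB and OSTC were called lower and 0 higher, beside 17.6% and 15.4%. At an unadjusted p under 0.05, 6 members were lower and 1 higher in 10% serum (of all genes 25.3% and 21.8%), and 7 lower and 1 higher in 0.1% serum (21.3% and 19.7%). By the quasi-likelihood test 5 were lower and 1 higher in the former, beside 21.4% and 17.9% of all genes, and 7 and 0 in the latter, beside 17.3% and 15.1%. The 7 include 1 of the 6 sensors and transcription factors, of which the likelihood ratio test called 0. The CPM groups did not overlap for 8 members lower and 6 higher in 10% serum (29.6% and 29.8% of all genes) and 11 lower and 1 higher in 0.1% serum (21.8% and 19.7%). The member medians were −0.12 and −0.06, beside 0.00 and 0.02 over all genes. Leaving out single libraries gave medians of −0.18 to −0.02 and −0.11 to −0.04, the value nearest 0 in 10% serum coming without library 6. DNAJC3, SDF2L1 and OSTC were called at both serum levels. The fits with a library left out called 3 to 4 lower and 0 to 1 higher in 10% serum, and 4 to 6 lower and 0 to 1 higher in 0.1% serum. Without the highest-numbered library of each group there were 9 lower and 6 higher in 10% serum and 8 lower and 6 higher in 0.1% serum, beside 32.6% and 31.0%, and 29.8% and 31.1%, of all genes.

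**Figure D3:**
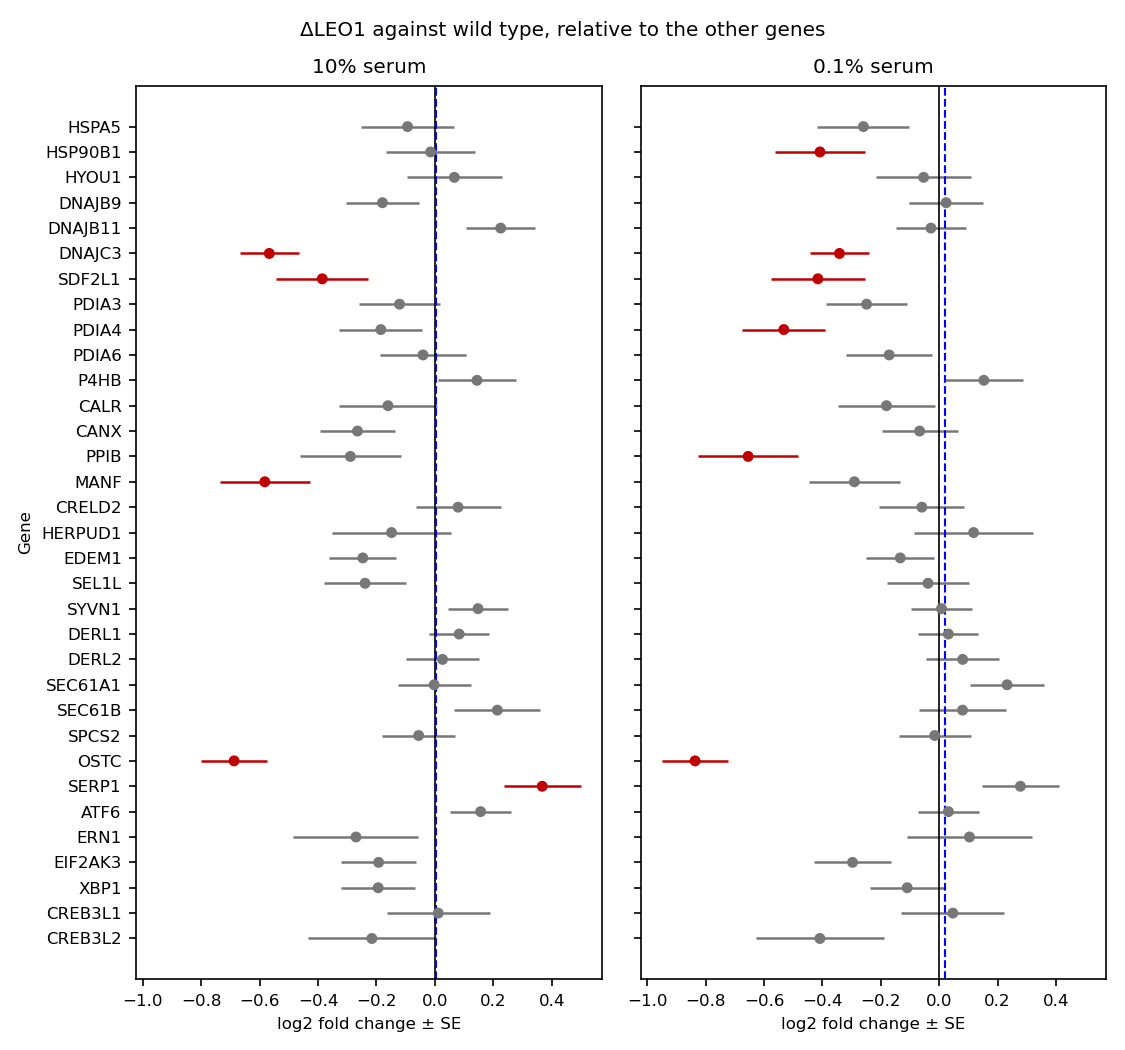
Log2 fold change of each of the 33 genes in ΔLEO1 against wt cells relative to the other genes (TMM factors of the genes), in 10% serum (left) and 0.1% serum (right). Points are estimates over 3 libraries against 3 with bars of 1 SE, red where the adjusted p was under 0.05, and the dashed line is the median of all tested genes. OSTC lies farthest to the left in both panels, at −0.69 and −0.84.

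The response to serum did not differ detectably between genotypes. In the test of the interaction of genotype and serum, 0 of the 33 genes were called on the ERCC scale, where 0.0831% of all genes were lower and 0.136% higher, and 0 were called relative to the other genes, beside 1.02% and 3.06%. At an unadjusted p under 0.05, relative to the other genes 0 were lower and 0 higher (of all genes 4.22% and 9.17%), with 0 called by the quasi-likelihood test (beside 0.453% and 1.55%). With ERCC factors 0 members had an unadjusted p under 0.05, as 0.831% lower and 1.66% higher of all genes had. There DESeq2 called 0 (beside 0.0756% lower and 0.0604% higher), the quasi-likelihood test called 0 (beside 0.0604% lower and 0.113% higher), and the SE of a member's interaction was 0.62 to 0.69. The most negative members were PPIB at −0.61 ± 0.62 and HSP90B1 at −0.51 ± 0.62, and the most positive HERPUD1 at 0.37 ± 0.63 and SEL1L at 0.24 ± 0.63. Without the highest-numbered library of each group and relative to the other genes, HSP90B1, PDIA4, PPIB and CREB3L2 were called lower and MANF, HERPUD1 and CREB3L1 higher, beside 9.99% and 17.5% of all genes.

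Of the 7 chaperones, HYOU1 had the most negative log2 fold change in 0.1% serum in both genotypes. HSPA5 (also BiP or GRP78; ENSG00000044574, chromosome 9 from 125234853 to 125241330 on the minus strand) is the main Hsp70 chaperone of the ER and the usual marker of ER stress. Its ERCC-scaled counts were 97.2, 81.2 and 53.1 in WT_10, 34.1, 47.2 and 35.1 in WT_01, 122, 98.7 and 59.1 in Leo1_10 and 35.7, 20.8 and 59.1 in Leo1_01. In wt cells the groups did not overlap, but the log2 fold change in 0.1% serum, −0.99 ± 0.44, missed the threshold (adjusted p = 0.0597), and in ΔLEO1 cells HSPA5 fell by 1.28 on the log2 scale (SE 0.44, adjusted p = 0.0206), although not without library 4, 5, 10 or 11. Its CPM were 771, 773 and 764 in WT_10, 729, 783 and 942 in WT_01, 772, 847 and 561 in Leo1_10 and 678, 695 and 651 in Leo1_01, with relative log2 fold changes of 0.00 ± 0.16 in wt cells and −0.16 ± 0.16 in ΔLEO1 cells (adjusted p = 0.992 and 0.468). Between genotypes the 95% interval of its relative log2 difference was −0.40 to 0.22 in 10% serum and −0.57 to 0.05 in 0.1% serum.

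HYOU1 (ENSG00000149428, chromosome 11 from 119044189 to 119057202 on the minus strand) encodes a large Hsp70-related chaperone that acts with HSPA5 as a nucleotide exchange factor. Its ERCC-scaled counts were 15.98, 13.9 and 8.82 in WT_10, 3.98, 4.57 and 3.66 in WT_01, 22.4, 17.2 and 12.4 in Leo1_10 and 4.02, 1.98 and 9.56 in Leo1_01. Within each genotype, the libraries in 0.1% serum all lay below those in 10% serum. HYOU1 fell 3.17-fold in wt cells (log2 −1.67 ± 0.45, adjusted p = 0.00356) and 3.35-fold in ΔLEO1 cells (log2 −1.74 ± 0.45, adjusted p = 0.00299). It was the most negative member in both genotypes and also fell relative to the other genes, by 0.66 in wt (adjusted p = 4.19e-04) and 0.78 in ΔLEO1 cells (adjusted p = 2.59e-05). In wt cells 9.69% of the tested genes, and in ΔLEO1 cells 6.54%, had a lower log2 fold change. In wt cells both calls held with any single library left out, and in ΔLEO1 cells the call on the ERCC scale was lost without library 10.

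HSP90B1 (ENSG00000166598, chromosome 12 from 103930107 to 103953645 on the plus strand), the ER member of the Hsp90 family (GRP94), had ERCC-scaled counts of 120.0, 100.1 and 64.3 in WT_10, 42.3, 55.9 and 34.5 in WT_01, 164, 128 and 72.4 in Leo1_10 and 35.02, 20.4 and 63.9 in Leo1_01. It fell 2.14-fold in wt cells (log2 −1.10 ± 0.44, adjusted p = 0.0412) and 3.05-fold in ΔLEO1 cells (log2 −1.61 ± 0.44, adjusted p = 0.00509). Its CPM were 951, 952 and 926 in WT_10, 904, 926 and 925 in WT_01, 1039.7, 1096 and 686 in Leo1_10 and 665, 683 and 705 in Leo1_01. In 0.1% serum the ΔLEO1 libraries all lay below the wt libraries, a relative log2 difference of −0.41 ± 0.15 (adjusted p = 0.0265) that was not called without any 1 of libraries 7 to 12. In 10% serum the difference was −0.01 ± 0.15, with library 6 at 686 CPM far below libraries 4 and 5.

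DNAJC3, a J-domain co-chaperone that also inhibits PERK, had CPM of 88.2, 87.7 and 83.3 in WT_10, 96.8, 93.9 and 83.7 in WT_01, 60.5, 58.4 and 57.02 in Leo1_10 and 70.2, 69.3 and 74.6 in Leo1_01. The ΔLEO1 libraries lay below the wt libraries at both serum levels without overlap. The relative log2 difference was −0.57 ± 0.10 with 10% serum and −0.34 ± 0.10 with 0.1% serum (adjusted p = 1.80e-07 and 0.00351), and both calls held with any single library left out. With ERCC factors the differences were −0.22 ± 0.45 and −0.09 ± 0.45 and were not called. SDF2L1, which acts with J-domain proteins in the ER, had CPM of 10.3, 9.39 and 9.69 in WT_10, 8.85, 10.1 and 11.3 in WT_01, 7.99, 8.12 and 6.55 in Leo1_10 and 7.68, 7.65 and 7.05 in Leo1_01. It too was lower in the ΔLEO1 libraries without overlap, with relative log2 differences of −0.39 ± 0.16 (adjusted p = 0.0378) and −0.42 ± 0.16 (adjusted p = 0.0316), but the call in 10% serum was lost without any 1 of libraries 1 to 6 or library 8, and that in 0.1% serum without library 5, 8, 9, 11 or 12.

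The J-domain co-chaperone DNAJB11 had ERCC-scaled counts of 5.08, 4.06 and 2.81 in WT_10, 1.70, 2.40 and 1.68 in WT_01, 7.38, 5.89 and 4.55 in Leo1_10 and 2.03, 1.18 and 3.57 in Leo1_01. It fell in ΔLEO1 cells on both scales, by 1.39 (adjusted p = 0.0164) and, relative to the other genes, by 0.32 (adjusted p = 0.0283, not called without library 4, 5, 10, 11 or 12), while in wt cells it had −1.05 ± 0.45 and −0.06 ± 0.12. DNAJB9, a co-chaperone that restrains IRE1, had log2 fold changes of −1.11 ± 0.46 (adjusted p = 0.0490) and −1.005 ± 0.46 (adjusted p = 0.0588) on the ERCC scale. Its relative values, −0.13 ± 0.13 and 0.07 ± 0.13, were within their errors. Of the 7 chaperones, 3 were called lower on the ERCC scale in wt cells and 5 in ΔLEO1 cells, beside 36.1% and 47.2% of all genes.

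**Figure D4:**
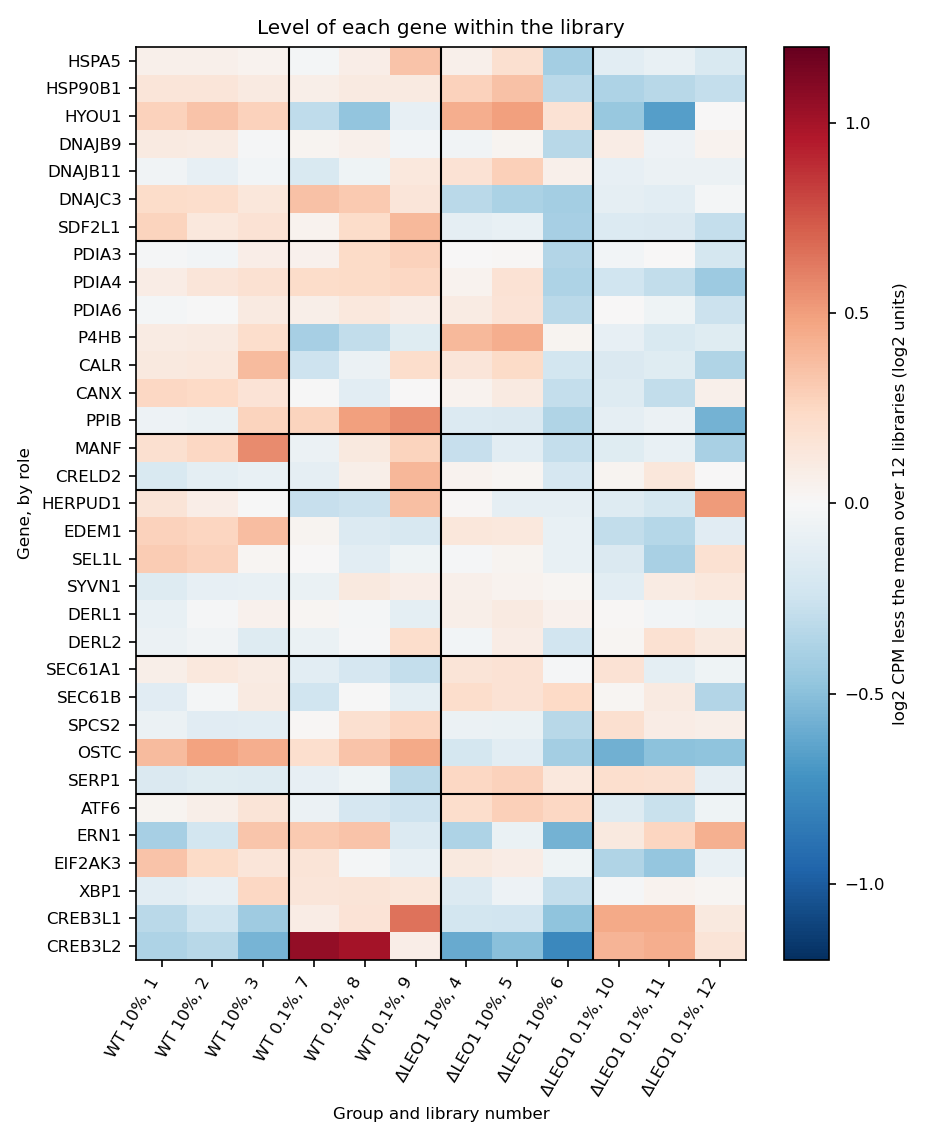
Level of each gene (rows, grouped by role between the horizontal lines) in each library (columns, by group and library number), as log2 CPM less the gene's mean over the 12 libraries. Red is above and blue below that mean. CREB3L1 and CREB3L2 are red in 0.1% serum in both genotypes, OSTC and DNAJC3 are blue in the ΔLEO1 libraries, and the column of library 6 is bluer than its neighbours for most genes.

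The 7 disulfide isomerases, lectin chaperones and prolyl isomerase were all called lower on the ERCC scale in ΔLEO1 cells in 0.1% serum, with log2 fold changes of −1.17 to −1.59, and 3 of them (P4HB, CALR and CANX) in wt cells. Of all genes, 47.2% and 36.1% were called lower. Without library 10, 0 members kept the call in ΔLEO1 cells, and without library 1, 7 or 9 only HYOU1 kept it in wt cells. P4HB (ENSG00000185624, chromosome 17 from 81843159 to 81860694 on the minus strand) is protein disulfide isomerase itself and also the beta subunit of collagen prolyl 4-hydroxylase. Its ERCC-scaled counts were 138, 116 and 81.8 in WT_10, 36.1, 50.1 and 34.3 in WT_01, 211, 161 and 110.1 in Leo1_10 and 50.1, 26.9 and 83.4 in Leo1_01. The groups of the serum levels did not overlap in either genotype. P4HB fell 2.78-fold in wt (log2 −1.48 ± 0.44, adjusted p = 0.00798) and 3.001-fold in ΔLEO1 cells (log2 −1.59 ± 0.44, adjusted p = 0.00572). Relative to the other genes it fell by 0.51 and 0.50 (adjusted p = 0.00101 and 0.00139), and these relative calls held with any single library left out. CALR fell by 1.29 in wt and 1.48 in ΔLEO1 cells on the ERCC scale (adjusted p = 0.0197 and 0.00960), and the isomerases PDIA3 and PDIA6 by 1.17 and 1.29 in ΔLEO1 cells (adjusted p = 0.0288 and 0.0203). CANX, the membrane-bound lectin chaperone, fell relative to the other genes in wt cells, by 0.35 (adjusted p = 0.0277, not called without library 1, 2, 7 or 8), and was at −0.15 ± 0.13 in ΔLEO1 cells.

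PPIB (ENSG00000166794, chromosome 15 from 64155812 to 64163205 on the minus strand), cyclophilin B, a prolyl isomerase that acts on collagen, had CPM of 461, 456 and 580.4 in WT_10, 581, 679.6 and 707 in WT_01, 429, 428 and 376 in Leo1_10 and 446, 459 and 325 in Leo1_01. In 0.1% serum, the wt libraries all lay above the ΔLEO1 libraries. The relative log2 difference was −0.65 ± 0.17 (adjusted p = 9.23e-04) and held with any single library left out, while in 10% serum it was −0.29 ± 0.17 (adjusted p = 0.175). Against the ERCC transcripts the difference in 0.1% serum was −0.50 ± 0.44, with a 95% interval of −1.36 to 0.36. PDIA4, a further isomerase (ERp72), had CPM of 179.8, 187 and 192 in WT_10, 198, 199 and 201 in WT_01, 174, 191 and 131 in Leo1_10 and 144, 138 and 125 in Leo1_01. Its 3 ΔLEO1 libraries in 0.1% serum ranged from 125 to 144 CPM, around the 131 CPM of library 6 and below all others, with a relative log2 difference from wt of −0.53 ± 0.14 (adjusted p = 0.00113) that held with any single library left out, and of −0.19 ± 0.14 in 10% serum. For PPIB, 21.9% of the 58-base stretches of its transcripts also occurred in transcripts of other genes, mainly SNX22, and its counts may be divided with them. PDIA3 (28.0%), PDIA6 (21.9%), DNAJB11 (20.4%), SPCS2 (14.9%) and EIF2AK3 (13.4%) have the same limit, and the other members had under 10%.

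Of the 2 secreted stress proteins, MANF had CPM of 39.9, 41.5 and 51.8 in WT_10, 33.3, 37.9 and 42.01 in WT_01, 28.8, 31.98 and 28.8 in Leo1_10 and 31.6, 32.95 and 26.7 in Leo1_01. In 10% serum it was lower in the ΔLEO1 than in the wt libraries without overlap, with a relative log2 difference of −0.58 ± 0.15 (adjusted p = 8.37e-04), a call that held with any single library left out, and in 0.1% serum the difference was −0.29 ± 0.16 (adjusted p = 0.145). CRELD2, which is induced with MANF under ER stress, was called in neither genotype comparison and had relative log2 differences between genotypes of 0.08 ± 0.15 and −0.06 ± 0.15. MANF fell on the ERCC scale by 1.26 in wt and 1.16 in ΔLEO1 cells (adjusted p = 0.0271 and 0.0346) and CRELD2 by 1.07 in ΔLEO1 cells (adjusted p = 0.0447).

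Of the 6 degradation genes, 3 were called lower on the ERCC scale in wt cells in 0.1% serum (HERPUD1, EDEM1 and SEL1L) and 4 in ΔLEO1 cells (EDEM1, SEL1L, SYVN1 and DERL1), beside 36.1% and 47.2% of all genes. Between genotypes, 0 were called on either scale by the likelihood ratio test. By the quasi-likelihood test on the relative scale, EDEM1 was called lower in ΔLEO1 cells in 10% serum (−0.25 ± 0.11, adjusted p = 0.0472, against 0.0725 by the likelihood ratio test), and the others were not. EDEM1, a lectin that directs misfolded glycoproteins to degradation, had CPM of 63.97, 63.1 and 68.3 in WT_10, 54.1, 47.2 and 46.3 in WT_01, 58.2, 57.8 and 49.7 in Leo1_10 and 43.2, 41.7 and 48.2 in Leo1_01. It fell relative to the other genes in both genotypes, by 0.49 (adjusted p = 1.95e-04) and 0.38 (adjusted p = 0.00625), the latter not without library 4, 5 or 11. SEL1L, the partner of the ubiquitin ligase SYVN1, fell relative to the other genes in wt cells by 0.35 (adjusted p = 0.0413), a call lost without library 1, 2, 4, 7, 8, 9 or 10. HERPUD1, a membrane protein of the degradation complex that is strongly induced by ER stress, had CPM of 109, 103 and 97.4 in WT_10, 80.8, 82.05 and 126 in WT_01, 98.7, 91.1 and 91.03 in Leo1_10 and 88.00, 84.8 and 139.7 in Leo1_01. In 0.1% serum the highest-numbered library of each genotype, 9 and 12, stood above the others of its group, and the relative log2 fold changes in 0.1% serum were −0.18 ± 0.20 in wt and 0.08 ± 0.20 in ΔLEO1 cells (adjusted p = 0.520 and 0.796). HERPUD1 had on the ERCC scale the most positive difference between genotypes in 0.1% serum, 0.56 ± 0.45, with a 95% interval of −0.32 to 1.44. That value rested on library 12, with ERCC-scaled counts of 4.64, 2.54 and 12.7 in Leo1_01 beside 3.78, 4.95 and 4.70 in WT_01, and was −0.32 without it. SYVN1, DERL1 and DERL2 had relative log2 fold changes between −0.16 and 0.15 in the 4 comparisons, and 0 were called.

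Of the 5 genes of translocation and entry into the membrane, OSTC and SERP1 differed between genotypes in opposite directions. OSTC (ENSG00000198856, chromosome 4 from 108650584 to 108667820 on the plus strand) encodes a subunit of the oligosaccharyltransferase that works at the SEC61 channel. Its CPM were 125, 134 and 129 in WT_10, 111, 121 and 131 in WT_01, 82.7, 87.5 and 72.3 in Leo1_10 and 64.5, 68.2 and 68.6 in Leo1_01. All 6 ΔLEO1 libraries lay below all 6 wt libraries. The relative log2 difference was −0.69 ± 0.11 with 10% serum and −0.84 ± 0.11 with 0.1% serum (adjusted p = 1.58e-08 and 6.47e-12), with 14.5% and 9.13% of the tested genes lower, and both calls held with any single library left out. Scaled to ERCC, the differences were −0.33 ± 0.45 and −0.58 ± 0.45, with 95% intervals of −1.21 to 0.55 and −1.46 to 0.30.

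SERP1, also called RAMP4, a small protein that associates with the SEC61 channel, had CPM of 139, 142 and 141 in WT_10, 147, 152 and 125 in WT_01, 186, 190.4 and 172 in Leo1_10 and 181, 179.6 and 146 in Leo1_01. In 10% serum the ΔLEO1 libraries lay above the wt libraries, by 0.37 ± 0.13 on the relative log2 scale (adjusted p = 0.0166), a call that was lost without library 1, 2, 4 or 5. In 0.1% serum the groups overlapped through library 12 and the difference was 0.28 ± 0.13 (adjusted p = 0.0937). SERP1 was also the most positive member on the ERCC scale in 10% serum, 0.72 ± 0.45, with 17.6, 14.9 and 9.82 ERCC-scaled counts in WT_10 and 29.5, 22.2 and 18.1 in Leo1_10. SEC61B, a subunit of the channel, was the next, at 0.58 ± 0.45, with ERCC-scaled counts of 7.01, 6.30 and 4.56 in WT_10, 2.41, 3.66 and 2.10 in WT_01, 11.2, 8.02 and 7.56 in Leo1_10 and 3.27, 1.96 and 4.34 in Leo1_01. The channel pore SEC61A1 had ERCC-scaled counts of 73.1, 63.4 and 40.98 in WT_10, 23.7, 28.8 and 16.8 in WT_01, 97.1, 72.4 and 57.5 in Leo1_10 and 32.8, 15.3 and 48.1 in Leo1_01. It fell relative to the other genes in wt cells in 0.1% serum by 0.39 (adjusted p = 0.00855, not called without library 8) and was at −0.16 ± 0.13 in ΔLEO1 cells. SPCS2, a signal peptidase subunit, was called in no comparison, with relative values from −0.06 to 0.22.

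The 6 sensors and transcription factors moved in different directions within the library. CREB3L2 (ENSG00000182158, chromosome 7 from 137874979 to 138002067 on the minus strand) and CREB3L1 (ENSG00000157613, chromosome 11 from 46277661 to 46321422 on the plus strand), also called BBF2H7 and OASIS, are factors anchored in the ER membrane and related to ATF6 that act on genes of secretion and of matrix such as collagen. CPM of CREB3L2 were 293, 301 and 257 in WT_10, 784, 756 and 399.7 in WT_01, 249, 267 and 221 in Leo1_10 and 503, 513 and 421 in Leo1_01. Its libraries in 0.1% serum all lay above those in 10% serum, and library 9 stood well below libraries 7 and 8. CREB3L2 rose relative to the other genes by 1.10 ± 0.22 in wt cells (adjusted p = 8.81e-06) and 0.91 ± 0.22 in ΔLEO1 cells (adjusted p = 3.59e-04), and both calls held with any single library left out. In wt cells 95.9% of the tested genes had a lower relative log2 fold change. Scaled to ERCC, it had 0.17 ± 0.44 and −0.23 ± 0.44, which were not called, so that its level against the ERCC transcripts was not detectably changed. Without the highest-numbered libraries its relative rise was 1.29 in wt and 0.96 in ΔLEO1 cells, and on the ERCC scale it fell in ΔLEO1 cells, by 0.75 (adjusted p = 0.0432).

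CPM of CREB3L1 were 361, 383 and 336 in WT_10, 480.3, 505 and 709 in WT_01, 387, 386 and 323 in Leo1_10 and 617, 619 and 489 in Leo1_01. All libraries in 0.1% serum lay above all libraries in 10% serum. The relative rise was 0.56 ± 0.18 in wt (adjusted p = 0.00673, not called without library 9) and 0.60 ± 0.18 in ΔLEO1 cells (adjusted p = 0.00422, called with any single library left out). On the ERCC scale the values were −0.46 ± 0.44 and −0.56 ± 0.44, not called and of the opposite sign. ERN1, the sensor IRE1 and the member with the lowest level per kb of exon, had CPM of 11.6, 13.1 and 19.2 in WT_10, 19.01, 19.4 and 13.6 in WT_01, 11.8, 14.5 and 10.3 in Leo1_10 and 16.6, 18.2 and 20.5 in Leo1_01. In ΔLEO1 cells it was higher in 0.1% serum without overlap, by 0.53 ± 0.21 (adjusted p = 0.0454), but the quasi-likelihood test gave an adjusted p of 0.0652 and the call was lost without library 2, 4, 6, 7, 8, 10, 11 or 12. In wt cells the groups overlapped through libraries 3 and 9, with 0.16 ± 0.21. ERCC-scaled counts of ERN1 were 1.46, 1.38 and 1.33 in WT_10, 0.890, 1.17 and 0.509 in WT_01, 1.87, 1.69 and 1.09 in Leo1_10 and 0.874, 0.545 and 1.86 in Leo1_01, with log2 fold changes of −0.70 ± 0.48 and −0.51 ± 0.48.

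**Figure D5:**
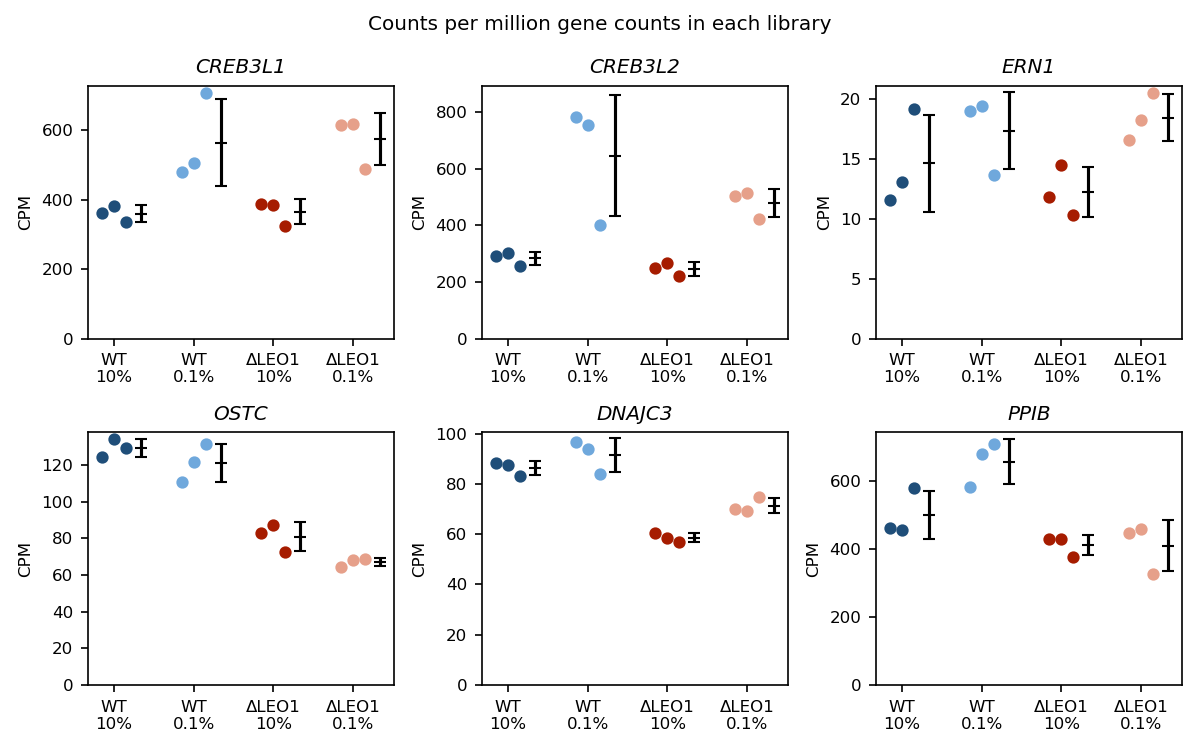
CPM of 6 genes in each library, by genotype and serum. Coloured points are libraries in the order of their number, and the black bars are the mean and SD of 3 libraries. CREB3L1 and CREB3L2 are higher in 0.1% serum in both genotypes, OSTC and DNAJC3 are lower in ΔLEO1 cells at both serum levels, and PPIB differs between genotypes in 0.1% serum.

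ATF6, itself a membrane-bound factor that is cut and released under stress, had CPM of 85.8, 88.1 and 93.7 in WT_10, 79.97, 73.1 and 71.03 in WT_01, 97.3, 103 and 100 in Leo1_10 and 75.5, 69.8 and 81.2 in Leo1_01. Its ERCC-scaled counts were 10.8, 9.26 and 6.51 in WT_10, 3.74, 4.41 and 2.65 in WT_01, 15.4, 11.97 and 10.5 in Leo1_10 and 3.98, 2.09 and 7.36 in Leo1_01. It fell on both scales in both genotypes, by 1.30 (adjusted p = 0.0219) and 1.498 (adjusted p = 0.0105) on the ERCC scale and by 0.34 (adjusted p = 0.00606, not called without library 8) and 0.47 (adjusted p = 1.11e-04) relative to the other genes. EIF2AK3, the sensor PERK, had CPM of 31.9, 29.4 and 27.7 in WT_10, 27.98, 24.7 and 23.6 in WT_01, 27.3, 26.8 and 24.3 in Leo1_10 and 19.5, 18.3 and 23.7 in Leo1_01. It fell by 1.30 and 1.43 on the ERCC scale (adjusted p = 0.0251 and 0.0158) and, relative to the other genes, by 0.41 in ΔLEO1 cells (adjusted p = 0.00767, not called without library 4 or 11), with −0.31 ± 0.13 in wt cells (adjusted p = 0.0504). XBP1, whose spliced mRNA encodes the factor made after IRE1 is activated, had CPM of 154, 157 and 200.2 in WT_10, 186, 187 and 185 in WT_01, 150.3, 162 and 138 in Leo1_10 and 167, 173 and 171 in Leo1_01. It was called in no comparison on either scale by the likelihood ratio test, with relative log2 fold changes of 0.04 ± 0.13 and 0.12 ± 0.13 in 0.1% serum. In 0.1% serum its ΔLEO1 libraries all lay below the wt libraries in CPM, as for 21.8% of all genes. Counts per gene do not separate spliced from unspliced XBP1 mRNA. Between genotypes, the relative log2 differences of the 6 sensors and factors ran from −0.27 to 0.16 in 10% serum. In 0.1% serum they ran from −0.41 to 0.10.

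In the response to serum, the members with an ERSE or ERSE-II had medians close to those of the rest. Of the 9 members that hold one, 4 were called lower in 0.1% serum in wt cells on the ERCC scale (median −1.04), beside 11 of the 22 members that hold neither (median −1.08) and 36.1% of all genes. In ΔLEO1 cells the counts were 8 of 9 (median −1.29) and 14 of 22 (median −1.16), beside 47.2% of all genes. Relative to the other genes, the medians of the 9 and the 22 were −0.08 and −0.10 in wt and −0.16 and −0.11 in ΔLEO1 cells. Between genotypes the relative medians were −0.04 and −0.19 in 10% serum and −0.17 and −0.03 in 0.1% serum. On the ERCC scale they were 0.34 and 0.18 in 10% serum and 0.05 and 0.23 in 0.1% serum. On both scales the order of the 2 sets turned with serum. The interaction medians were −0.26 and −0.09 on the ERCC scale and −0.12 and 0.04 relative to the other genes. HYOU1, with its pair of ERSE-II matches, had the most negative serum response of the 33. CREB3L1 and CREB3L2, with the most positive relative to the other genes, had none of the searched elements in their windows. The relative serum responses of the 9 ran from −0.66 to 0.18 in wt and from −0.78 to 0.08 in ΔLEO1 cells. Those of the 22 ran from −0.51 to 1.10 and from −0.50 to 0.91. These medians are a description and were not tested.

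Other genes of the same pathway were followed in 5 lists of 64 genes, of which 63 were tested (FKBP2 was below the filter). The lists were chosen with earlier results of these data known. Their counts beside the shares of all genes, here and below, are a description and test nothing. On the ERCC scale 32 were called lower in wt and 44 in ΔLEO1 cells in 0.1% serum and 0 higher, beside 36.1% and 47.2% of all genes lower. Between genotypes 0 were called on that scale, and 0 by the quasi-likelihood test or DESeq2. At an unadjusted p under 0.05 there were 4 in 10% serum (of all genes 6.81% lower and 10.2% higher) and 2 in 0.1% serum (5.58% and 8.7%). Relative to the other genes, 12 were lower and 8 higher in wt cells in 0.1% serum, beside 16.6% and 16.0% of all genes. In ΔLEO1 cells 12 were lower and 7 higher, beside 12.9% and 16.5%. Between genotypes, 12 were lower and 5 higher in ΔLEO1 cells in 10% serum, and 18 lower and 6 higher in 0.1% serum, beside the backgrounds given for those comparisons. In the signal peptidase complex, SPCS1 was lower in ΔLEO1 cells at both serum levels (−0.69 and −0.63), SPCS3 in 10% serum (−0.65), and SEC11C was higher at both (0.73 and 0.99). The exons of SPCS1 overlap those of other genes by 58.1% of their bases, among them NEK4 and GLT8D1 on the opposite strand. Its reads may not be separated from theirs. SEC11A, also of this complex, was not called. Its mean CPM was 113.5 in WT_10 and 111.1 in Leo1_10, beside 7.26 and 12.1 for SEC11C. Of the other translocation and glycosylation genes, SEC61G, SSR3 and TRAM1 were higher in ΔLEO1 cells in 0.1% serum (0.37, 0.55 and 0.35). TRAM1, which helps nascent chains into the membrane, fell by 1.17 in wt and 0.56 in ΔLEO1 cells in 0.1% serum, and this response differed between genotypes (interaction 0.61 ± 0.16, adjusted p = 0.00820, not called without library 4 or 8).

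In the list of stress response genes downstream of the sensors, 5 of 11 were lower in ΔLEO1 cells relative to the other genes in 10% serum (ATF4, ATF3, CHAC1, ATF6B and MBTPS2) and 1 was higher (DDIT3), beside 21.8% and 17.7% of all genes. In 0.1% serum 6 were lower (the same 5 and PPP1R15A) and 0 higher, beside 17.6% and 15.4%. Of these 6, the quasi-likelihood test called 4, with adjusted p of 0.0574 for ATF3 and 0.0535 for CHAC1. The call of ATF3 in 0.1% serum was lost without library 4, 5, 7, 8, 10 or 11, and that of CHAC1 without library 9, 10 or 11. ATF4, the factor translated when PERK or a related kinase acts on eIF2α, had 324 to 330.5 CPM in wt and 151 to 153 CPM in ΔLEO1 cells in 10% serum, and 402 to 550.4 and 269.9 to 357 CPM in 0.1% serum. Its relative log2 difference between genotypes was −1.11 ± 0.14 (adjusted p = 1.98e-14) and −0.57 ± 0.14 (adjusted p = 2.06e-04), held with any single library left out. Mean ERCC-scaled counts of ATF4 were 32.7 ± 9.35 (SD, n = 3) in WT_10, 19.3 ± 4.33 in Leo1_10, 21.9 ± 3.96 in WT_01 and 18.5 ± 12.3 in Leo1_01. On the ERCC scale 0 of the 11 genes were called between genotypes by the likelihood ratio test (smallest adjusted p = 0.118 in 10% and 0.420 in 0.1% serum). ATF3 was lower relative to the other genes by 1.65 in 10% serum (adjusted p = 4.05e-07), and CHAC1 by 0.85 (adjusted p = 0.0399). TRIB3, of the same list, was called in neither genotype comparison and had higher means in ΔLEO1 cells. Its mean CPM was 23.9 ± 0.835 (SD, n = 3) in WT_10 and 28.7 ± 8.58 in Leo1_10. In 0.1% serum it was 26.5 ± 16.4 in WT_01 and 32.8 ± 11.3 in Leo1_01. DDIT3, the factor CHOP, was higher in 10% serum by 0.89 (adjusted p = 0.0298), a call lost without library 1, 2, 3, 4 or 5, and that of CHAC1 was lost without library 1, 2, 3, 4 or 6, and in 10% serum neither was called by the quasi-likelihood test. The exons of DDIT3 overlap those of other genes by 39.6% of their bases, among them MARS and MBD6 on the opposite strand. Its counts, 5.30 to 7.65 CPM in WT_10 and 7.74 to 16.6 CPM in Leo1_10, may not be separated from theirs. PPP1R15A, a phosphatase subunit that reverses the PERK signal, had 109 to 115 and 191 to 208 CPM in wt and 91.4 to 103 and 85.99 to 130.4 CPM in ΔLEO1 cells in 10% and 0.1% serum. Its response to serum differed between genotypes (interaction −0.73 ± 0.19, adjusted p = 0.00581), and the call held with any single library left out.

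In the remaining lists, PDIA5 and MOGS were higher in ΔLEO1 cells in 10% serum (0.50 and 0.32), and ERO1B, ERP44, PRDX4, SIL1 and GANAB were lower in 0.1% serum (−0.56 to −0.29), PRDX4 not under the quasi-likelihood test. Of the degradation genes, EDEM3 was lower at both serum levels (−0.998 and −0.83), as was ERLEC1 (−0.27 and −0.29), while UBE2J1 was higher in 10% serum (0.30) and EDEM2 in 0.1% serum (0.42). Of the collagen folding genes, P4HA2, CRTAP and FKBP10 were lower at both serum levels (−0.56, −0.50 and −0.35 in 10% serum, −0.56, −0.64 and −0.46 in 0.1% serum), P3H1 was lower in 0.1% serum (−0.44) and PLOD2, a lysyl hydroxylase, was higher there (0.90). Of the 10 collagen folding genes, 4 were thus lower and 1 higher in 0.1% serum, beside 17.6% and 15.4% of all genes, and 0 were called on the ERCC scale. CRTAP and P3H1 form a complex with cyclophilin B, the product of PPIB, and all 3 were lower in ΔLEO1 cells in 0.1% serum relative to the other genes. In 10% serum, of these 3 only CRTAP was called lower, and P3H1 had a mean of 169 CPM in ΔLEO1 and 151 CPM in wt cells. The complex as such was not tested.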

How the data were processed

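Poly(A) RNA of 12 libraries of BJ-5ta cells, 3 per group, was sequenced with ERCC transcripts added. The deposited values are raw counts per gene and per ERCC transcript, which the authors made by demultiplexing with bcl2fastq 2.20.0.422, aligning with STAR to GRCh38 joined with the ERCC sequences (version 2.7.10a per the submitters' processing notes) and counting reads in exons with featureCounts 1.5.1. The annotation release and strand setting are not given in the sources used here, so reads of overlapping genes may not be separated. The libraries held 26240632 to 45315560 gene counts.

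From these counts, CPM and ERCC-scaled counts were computed, and a model with the 4 groups was fitted over all 12 libraries with edgeR 4.0.16 (R 4.3.3) and tested with its two-sided likelihood ratio test. The effective library size was the ERCC total times the TMM factor of the ERCC transcripts (0.9775 to 1.019). Genes above 1 CPM in 3 or more libraries were tested (13236), with Benjamini-Hochberg adjustment over all of them and a threshold of 0.05. An SE is that of the fitted log2 fold change, and a 95% interval is 1.96 SE to either side. The relative scale used TMM factors of the genes in place of the ERCC factors. Alternatives were the quasi-likelihood test, DESeq2 1.42.0, other filters and size factors, and fits without single libraries or without the highest-numbered library of each group. The script was tested on simulated data.

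The members and lists were chosen with earlier results of these data known. All members were to be named. Values of every library were to be given for HSPA5, the sensors and factors, members called between genotypes, and the 2 most positive and 2 most negative members of each comparison, and of the further lists the genes called between genotypes were to be named. Values of every library for EDEM1 and DNAJB11 were added after they were seen. Promoters came from RefSeq on GRCh38.p14 and gene positions from GENCODE 29.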

Additional observations from a re-analysis of the deposited data

How the results depend on the processing

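No paired analysis was possible because the libraries are numbered 1 to 12 and no number is shared between groups. On the ERCC scale, the 15 members lower in wt cells in 0.1% serum became 7 with TMM factors of the genes or with DESeq2's size factors of the genes, 8 with no filter, 29 with only the libraries compared, 29 without the highest-numbered library of each group, 29 with that library as a term and 0 with the lowest-numbered pair of each group summed, and the 24 in ΔLEO1 cells became 7 with only the libraries compared, 8 with either set of gene factors and 0 with the pair summed. Of all genes, 16.6% were lower in wt and 12.9% in ΔLEO1 cells with TMM factors of the genes. In wt cells 72.4% were lower without the highest-numbered library of each group and 71.4% with it as a term. Members called higher went from 0 to 2 in wt cells with either set of gene factors, and from 0 to 3 (TMM) or 2 (DESeq2's factors) in ΔLEO1 cells. With TMM factors 16.0% and 16.5% of all genes were higher. Between genotypes, both sets of gene factors gave 4 lower and 1 higher in 10% serum and 6 lower in 0.1% serum, where 2 were lower without the highest-numbered libraries. Leaving out 1 library at a time gave 1 to 29 lower in wt cells, 0 to 32 in ΔLEO1 cells, and 0 in every genotype and interaction count on the ERCC scale.

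The following alternatives on the relative scale were chosen after seeing the data. Without the highest-numbered libraries, wt cells had 13 lower and 5 higher (30.8% and 28.0% of all genes), and ΔLEO1 cells 14 lower and 5 higher (28.4% and 29.2%). The genotypes differed in 9 lower and 6 higher members in 10% serum (32.6% and 31.0%), and in 8 lower and 6 higher in 0.1% serum (29.8% and 31.1%). The interaction had 4 lower and 3 higher (9.99% and 17.5%). With the pair summed there were 1 lower and 1 higher in wt cells, 1 lower and 0 higher in ΔLEO1 cells, 0 higher in 10% serum and 3 lower between genotypes in 0.1% serum. Leaving out 1 library at a time gave 3 to 8 lower and 1 to 2 higher in wt cells, 3 to 10 and 2 to 4 in ΔLEO1 cells, 3 to 4 and 0 to 1 between genotypes in 10% serum, 4 to 6 and 0 to 1 in 0.1% serum, and 0 to 1 and 0 in the interaction.

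With gene factors in place of ERCC factors, many log2 fold changes in 0.1% serum turned from below to above 0. In wt cells 32 of the 33 were below 0 with ERCC factors and 21 with TMM factors, and in ΔLEO1 cells 33 and 23. Among members called in either fit, the sign turned for CREB3L1 in wt cells (0.56 with TMM, 0.57 with DESeq2's factors) and in ΔLEO1 cells (0.60 with either), for CREB3L2 in ΔLEO1 cells (0.91 with either), for ERN1 in ΔLEO1 cells (0.53 with TMM) and for CRELD2 in ΔLEO1 cells (0.040 with TMM, 0.039 with DESeq2's factors). Gene factors centre the median gene near 0 by construction, and the cause of the other changes was not tested. On the ERCC scale an SE of a member's log2 fold change between groups was near 0.44.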
